A study of Neurospora crassa with 24 samples.

Results

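Among 9730 *N. crassa* genes measured in 2 strains over a circadian day, 32 genes stood higher in the subjective morning than in the early subjective night in both ΔMSN1 and WT. Values were counts per 1000000 of the library total (CPM), and the rule first kept the 6334 genes whose mean over the 24 libraries was 5 CPM or more. In each strain it then took the mean log2(CPM + 1) at 12, 14 and 16 h of darkness minus that at 2, 4 and 6 h, and asked for a difference of at least 0.7 in both strains. In ΔMSN1 76 of the kept genes reached this difference and in WT 177 did, with 40 genes in common. A further 8 of those 40, named in the rule, were left out, among them the clock-controlled gene *ccg-1*. The members were therefore chosen on these same libraries. Their difference between morning and early night is a description with no test, and tests were kept for the level between strains and for the times that the rule did not use.

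The ΔMSN1 cultures were of FGSC #11345, in which *msn-1* (NCU02671) is knocked out, and the WT cultures were of FGSC #2489. All were liquid cultures in Vogel's medium with glucose, L-arginine and biotin, kept for 2 days under 11 h of light and 11 h of dark and then left in the dark, with 0 h as the time of lights off. Each strain was sampled every 2 h from 0 to 22 h with 1 culture at each time, so each strain had 12 libraries. Transfers to the dark were staggered and all cultures were collected within 10 h, so time in darkness was not the order of harvest. Lights would have come on again at 11 h, which places 12 to 16 h in the subjective morning. ΔMSN1 stands for 1 deletion strain.

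The deposited values summed to 2415479 to 9829687 per library in ΔMSN1 and to 2732470 to 8094126 in WT. The *msn-1* transcript was listed at 0 in 11 ΔMSN1 libraries and at 0.0413 CPM in the remaining one (10 h), and it was at 25.7 to 50.8 CPM in the WT libraries, as the labels have it. Libraries of the morning were on average shallower than those of the early night. They averaged 3259080 at 12 to 16 h against 5138098 at 2 to 6 h in ΔMSN1, and 3497872 against 6216226 in WT. Other times were shallow too, with a mean of 2954382 at 0 and 22 h in ΔMSN1 and 2732470 at 18 h in WT. The part of depth in the differences over time was not tested. A sequencing lane is named in the labels of ΔMSN1 only, and each strain was grown as its own set of cultures, so strain cannot be told apart from lane or culture set.

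In the clock of this fungus the white collar complex activates *frq*, and the FRQ protein then holds the complex back, so that *frq* RNA runs low in the early night and is high in the morning. The complex is also the photoreceptor, which means that light itself switches on *frq* and other genes. Through the complex and the transcription factors below it, the clock times many output genes, a good number of them in metabolism, and MSN1 is a relative of the yeast stress-response factor Msn2.

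Of the 32 genes, 15 carry a product name in the gene tables of the study, 12 are listed as hypothetical proteins and 5 are not named there. By keywords of these names, 4 were dehydrogenases or reductases, 2 transporters, 2 carbohydrate-active enzymes, 1 a stress protein and 1 a lipid protein. Among the kept genes named in those tables the same keywords caught 103, 65, 37, 19 and 27. *frq* was the 1 member on the list of clock and light genes, which held 35 kept genes. The mannanase NCU08412, which those keywords did not catch, is described with the carbohydrate-active enzymes. No member was named as a peptidase, a transcription factor, a kinase or phosphatase, a protein of translation or ribosome biogenesis, or an enzyme of amino acid, sulfur or nitrogen metabolism. These classes covered 18, 32, 50, 46 and 64 of the kept genes named in those tables. The tables list genes that the study found rhythmic, so the rest of the kept genes had no name to match. The class sizes are therefore not those of all kept genes. Whether the members differ from the kept genes in class was not tested.

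The members ran from 8.54 CPM (NCU08050) to 2473 CPM (NCU07232) on the mean of 24 libraries, and none was at 0 in any library. By the values that chose them, morning exceeded early night by a median of 1.03 on the log2 scale in ΔMSN1 (0.71 to 2.12) and of 1.08 in WT (0.73 to 3.61). Over all kept genes the median of the same difference was −0.24 in ΔMSN1 and −0.08 in WT. In 20 of the 32 genes the difference was smaller in ΔMSN1 than in WT. The 3 morning values all lay above the 3 early-night values for 30 members in ΔMSN1, against 3.11% of all kept genes, and for all 32 in WT, against 9.71%. The rule fixed most of this, and nothing is read from it. The 2 exceptions in ΔMSN1 were NCU01112, a lipid binding protein, and NCU01735.

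Across the whole course the median member, centred on its own mean in each strain, was lowest at 4 h in ΔMSN1 (−0.53) and at 6 h in WT (−0.62). It stood at 0.60, 0.69 and 0.52 at 12, 14 and 16 h in ΔMSN1 and at 0.69, 0.61 and 0.71 in WT. At 10 h it was still at −0.08 in ΔMSN1 and −0.09 in WT, and at 18 h it was back at 0.05 and 0.10. The rule used 12 to 16 h and 2 to 6 h, so the place of these steps and the peak times that follow are set largely by the choice of genes and are given as a description. A cosine of 22 h fitted to each member peaked at a median of 14.93 h in ΔMSN1 (11.40 to 17.69 h) and 14.83 h in WT (12.25 to 18.11 h), later in ΔMSN1 for 17 genes with a median shift of 0.08 h.

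**Figure D1:**
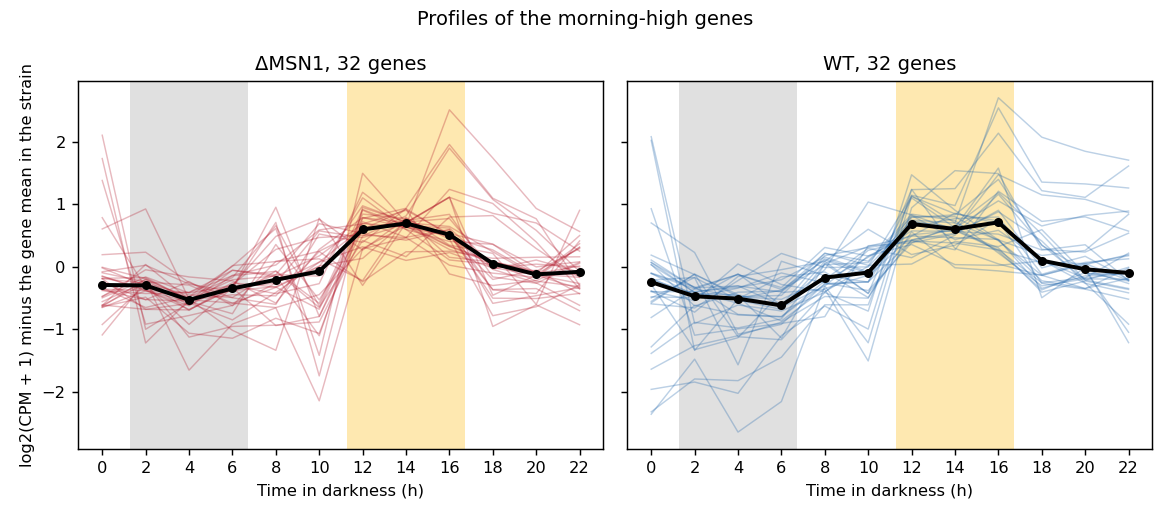
Each thin line is 1 of the 32 genes, as log2(CPM + 1) minus its mean over the 12 libraries of the strain (y axis) against hours in darkness (x axis), with ΔMSN1 on the left and WT on the right, and the black line is the median gene. Grey and yellow bands mark the early-night (2 to 6 h) and morning (12 to 16 h) times that chose the genes, and the median stood at 0.60, 0.69 and 0.52 in the morning band of ΔMSN1 and at 0.69, 0.61 and 0.71 in that of WT.

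Single genes did not all follow the median. The highest library of a member was at 12 h for 12 genes, at 14 h for 6 and at 16 h for 7 in ΔMSN1. In WT it was at 12 h for 10 genes, at 14 h for 4 and at 16 h for 14. The remaining 7 genes in ΔMSN1 and 4 genes in WT had their highest library outside the morning times, 3 of them at 0 h in ΔMSN1 and 2 at 0 h in WT. In ΔMSN1 7 members were lowest at 10 h. This library was also the deepest of the series, and the part of depth was not tested. The share of all kept genes lowest there is not given, so the count is not read as a trait of the members. In WT only 1 member was lowest at 10 h.

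The 3 members with the largest difference in the weaker strain were NCU00829, NCU02884 and *tcu-1*, and 2 of these are named for metal uptake. Ctr proteins such as TCU-1 and TCU-3 carry copper across membranes, and ferric reductases, known best from yeast, reduce iron and copper ions at the cell surface before uptake. *tcu-1* (NCU00830) stood at 37.8, 47.5 and 102 CPM at 12, 14 and 16 h in ΔMSN1, against 21.9, 11.6 and 13.2 CPM at 2, 4 and 6 h. In WT it stood at 122, 123 and 228 CPM in the morning and at 13.5, 11.8 and 23.2 CPM in the early night. The early-night values of the strains lay together, and the morning values of ΔMSN1 all lay below those of WT.

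NCU00829, named a ferric reductase, is the direct neighbour of *tcu-1* on the chromosome and had nearly the same course. In ΔMSN1 it was at 41.0, 46.0 and 94.5 CPM in the morning, against 16.5, 10.7 and 10.1 CPM in the early night. In WT the morning values were 98.4, 87.5 and 261 CPM, against 11.9, 11.7 and 15.4 CPM. The 2 genes also shared their place in the rest of the course, with 51.5, 40.8 and 18.9 CPM of NCU00829 at 18, 20 and 22 h in ΔMSN1 and 114, 112 and 107 CPM in WT. *tcu-1* had 57.2, 40.3 and 25.2 CPM at these times in ΔMSN1 and 120, 111 and 158 CPM in WT. For both genes the ΔMSN1 values at 18, 20 and 22 h lay below all 3 WT values, and each of these values is 1 culture.

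*tcu-3* (NCU07428), the other copper transporter among the members, had 91.4, 99.2 and 132 CPM in the morning of ΔMSN1, against 49.1, 31.4 and 47.6 CPM in the early night. In WT these were 125, 143 and 193 CPM in the morning, against 49.4, 46.4 and 51.4 CPM. The related copper transporter gene *tcu-2* (NCU03281), looked up after these values were seen, was no member. Its difference was 0.37 in ΔMSN1 and 0.26 in WT, at a mean of 349 CPM in ΔMSN1 and 311 CPM in WT.

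NCU02884, a hypothetical protein, had the widest course of all members in WT. In ΔMSN1 it had 19.7, 25.6 and 95.4 CPM in the morning, against 13.4, 4.35 and 7.92 CPM in the early night. In WT it had 103, 75.7 and 307 CPM, against 15.9, 6.51 and 9.54 CPM. Another adjacent pair, NCU08193 and NCU08194, both hypothetical, followed the same outline at different levels. NCU08193 was at 222, 251 and 431 CPM in the morning of ΔMSN1, against 158, 126 and 121 CPM in the early night, and NCU08194 was at 20.2, 16.7 and 26.6 CPM against 11.1, 10.9 and 13.4 CPM. In WT NCU08193 was at 389, 349 and 653 CPM against 96.7, 108 and 126 CPM, and NCU08194 at 27.2, 24.4 and 47.7 CPM against 12.7, 11.3 and 11.1 CPM.

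After these courses were seen, members were counted whose values at 18, 20 and 22 h all lay above those at 8 and 10 h in both strains. There were 5 (NCU00829, *tcu-1*, *tcu-3*, NCU02884 and NCU08193), a share of the 32 to be read against 3.6% of all kept genes (228 of 6334). NCU08194 met this in WT only, since in ΔMSN1 it was at 13.1 CPM at 22 h and 14.1 CPM at 8 h. For all 6 of these genes the highest WT library was that of 16 h.

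**Figure D2:**
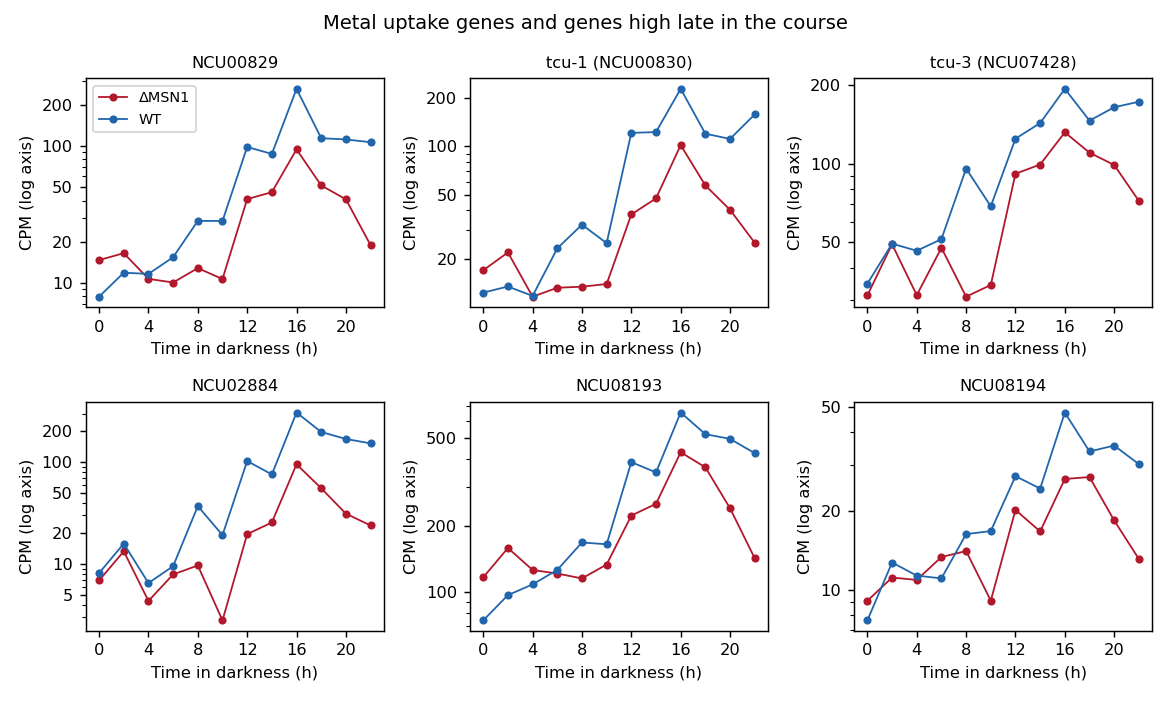
CPM (y axis, log scale, a different range in each panel) against hours in darkness (x axis) for NCU00829, *tcu-1*, *tcu-3*, NCU02884, NCU08193 and NCU08194, with ΔMSN1 in red and WT in blue and 1 library per point. In WT all 6 genes are highest at 16 h, and at 22 h the ΔMSN1 point is below the WT point in each panel (18.9 against 107 CPM for NCU00829).

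*frq* (NCU02265), which encodes the negative element of the clock, was a member at low counts. It stood at 13.8, 14.1 and 11.0 CPM at 12, 14 and 16 h in ΔMSN1, against 4.05, 4.56 and 5.22 CPM at 2, 4 and 6 h. In WT the morning values were 11.8, 14.5 and 21.3 CPM, against 3.57, 3.91 and 4.21 CPM. The values between lay in order of time in both strains, with 6.96 and 9.06 CPM at 8 and 10 h in ΔMSN1 and 4.62 and 11.4 CPM in WT. At 0 h, at the end of a light phase, *frq* was at 23.9 CPM in ΔMSN1, its highest library of the strain, and at 17.7 CPM in WT.

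2 more members were far above their morning level at 0 h. *mig-3* (NCU04452) was at 110 CPM at 0 h and at most 31.2 CPM at the other times in ΔMSN1, and at 109 CPM and at most 32.3 CPM in WT. NCU08291 was at 77.8 CPM at 0 h and at most 27.1 CPM elsewhere in ΔMSN1, and at 82.1 CPM and at most 29.1 CPM in WT. Both were at their lowest at 2 h in both strains (11.9 CPM in ΔMSN1 and 12.9 CPM in WT for *mig-3*, 9.15 CPM and 7.07 CPM for NCU08291). Counted after these values were seen, they were the 2 members whose highest of 12 libraries was at 0 h in both strains, as it was for 0.979% of all kept genes. Their morning differences were 1.03 (*mig-3*) and 0.82 (NCU08291) in ΔMSN1 and 0.88 and 0.83 in WT. *mig-3* had 31.2, 26.6 and 29.1 CPM in the morning of ΔMSN1, against 26.1 CPM at 10 h and 24.4 to 25.5 CPM at 18 to 22 h. In WT it had 32.3, 25.65 and 25.4 CPM, against 28.4 CPM and 23.4 to 26.8 CPM. NCU08291 had 19.0, 27.0 and 27.1 CPM in ΔMSN1, against 27.0 CPM and 25.0 to 25.45 CPM. In WT it had 29.1, 19.2 and 18.5 CPM, against 13.5 CPM and 17.6 to 22.4 CPM. Both thus lay low at 2 to 6 h rather than clearly high in the morning.

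**Figure D3:**
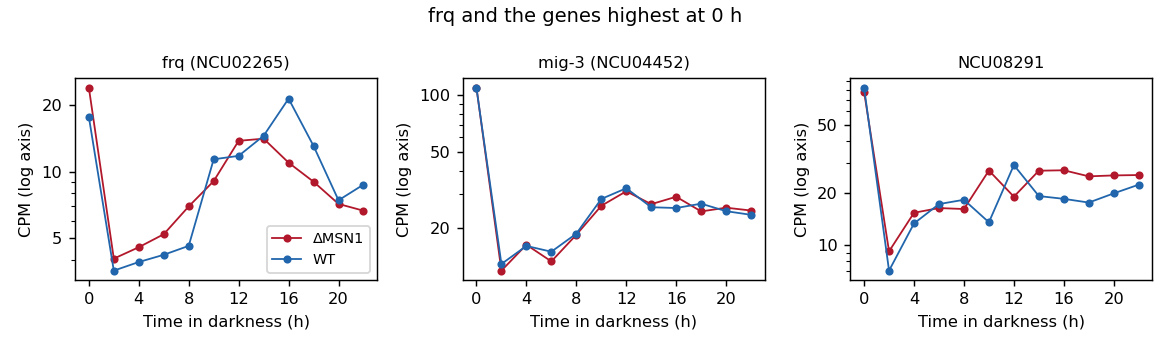
CPM (y axis, log scale, a different range in each panel) against hours in darkness (x axis) for *frq*, *mig-3* and NCU08291, with ΔMSN1 in red and WT in blue and 1 library per point. The 0 h point is the highest of both strains for *mig-3* (110 CPM in ΔMSN1 and 109 CPM in WT) and NCU08291, and the highest of ΔMSN1 only for *frq*.

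3 members are named as enzymes that act on plant cell walls. The mannanase NCU08412 cuts the backbone of mannan, the acetylesterase CE12-1 removes acetyl groups from the rhamnogalacturonan of pectin, and the exopolygalacturonase GH28-2 releases sugar acids from the ends of pectin chains. NCU08412 stood at 22.0, 18.1 and 16.2 CPM in the morning of ΔMSN1 against 9.11, 7.89 and 7.65 CPM in the early night, and at 18.5, 20.4 and 20.7 CPM against 8.38, 7.34 and 5.84 CPM in WT. *ce12-1* (NCU09976) stood at 80.2, 64.5 and 56.4 CPM against 37.4, 29.0 and 36.5 CPM in ΔMSN1, and at 70.0, 90.4 and 80.3 CPM against 36.5, 35.9 and 21.8 CPM in WT. *gh28-2* (NCU06961) was at 39.7, 33.7 and 29.5 CPM against 12.1, 12.0 and 15.6 CPM in ΔMSN1. In WT it was at 28.8, 37.4 and 35.2 CPM against 17.7, 20.8 and 21.1 CPM. The windows of these 3 genes did not overlap in either strain. The rule largely fixed this, and it held for 30 of the 32 members in ΔMSN1 and for all 32 in WT. In ΔMSN1 all 3 had their lowest library at 10 h, with 7.10 CPM for NCU08412, 19.1 CPM for *ce12-1* and 5.27 CPM for *gh28-2*. They are among the 7 members lowest in that 1 library, the deepest of the series.

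Enzymes of oxidation and reduction made up another group. *tca-17* (NCU00720), named as an L-lactate dehydrogenase, an enzyme class that oxidises lactate to pyruvate, was at 302, 212 and 151 CPM in the morning of ΔMSN1 against 104, 105 and 134 CPM in the early night. In WT it was at 171, 189 and 254 CPM against 132, 103 and 92.4 CPM. The highest library was thus that of 12 h in ΔMSN1 and that of 16 h in WT. NCU09533, an oxidoreductase with an NAD-binding fold, was at 129, 108 and 118 CPM against 59.9, 48.1 and 60.8 CPM in ΔMSN1 and at 241, 184 and 204 CPM against 103, 108 and 118 CPM in WT. In ΔMSN1 the highest value of NCU09533 was in the 8 h library (152 CPM), between 60.8 CPM at 6 h and 44.4 CPM at 10 h.

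The oxidoreductase NCU09821 had differences of 0.97 in ΔMSN1 and 0.89 in WT. *gcy-2* (NCU01906), whose product is named after the yeast aldo-keto reductase Gcy1, had 1.07 in ΔMSN1 and 0.74 in WT. The morning values of *gcy-2* were close together in both strains, at 160, 151 and 145 CPM in ΔMSN1 and 164, 161 and 158 CPM in WT. Its early-night values lay at 79.6, 59.7 and 76.8 CPM in ΔMSN1 and 92.0, 107 and 90.2 CPM in WT. The dienelactone hydrolase NCU01061, of an enzyme class known from bacteria that break down aromatic compounds, had differences of 1.12 in ΔMSN1 and 0.98 in WT. The lipid binding protein NCU01112 and the Eno3 protein NCU01870 were nearer the minimum, with 0.78 each in ΔMSN1 and 1.03 and 0.91 in WT.

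On the deposited values, whose relation to gene length is not stated, NCU07232, named heat shock protein 30, had the highest CPM of the members. It was at 2221, 3156 and 2509 CPM in the morning of ΔMSN1, against 1617, 1286 and 1500 CPM in the early night. In WT it was at 4497, 4625 and 6860 CPM, against 2304, 874 and 2763 CPM. In ΔMSN1 the library of 10 h (3130 CPM) was within the range of the morning, and the 22 h cosine peaked at 11.40 h, the earliest of all members in that strain, and at 14.47 h in WT.

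Among the hypothetical proteins with high CPM, NCU00322 was at 1892, 1840 and 1421 CPM in the morning of ΔMSN1 against 729, 780 and 1129 CPM in the early night, and at 1304, 1298 and 1258 CPM against 699.7, 515 and 503 CPM in WT. NCU04675 was at 427, 471 and 505 CPM against 228, 192 and 167 CPM in ΔMSN1, and at 734.5, 735 and 563 CPM against 306, 296 and 325 CPM in WT. NCU02596 and NCU00175 had smaller differences, of 0.74 and 0.78 in ΔMSN1 and 0.80 and 0.73 in WT. NCU08050, not named in the tables, was at 16.9, 13.9 and 14.5 CPM against 6.68, 6.41 and 5.06 CPM in ΔMSN1. In WT it was at 17.8, 14.5 and 13.4 CPM against 4.91, 7.90 and 6.08 CPM, and outside the morning it never exceeded 8.09 CPM in ΔMSN1 or 7.90 CPM in WT. Every morning value of NCU08050 thus lay above every other value of the same strain.

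At the edge of the rule, with no test, the 3 members nearest to the minimum were *gh28-2* (1.31 in ΔMSN1 and 0.73 in WT), NCU00175 (0.78 and 0.73) and NCU01735 (0.71 and 2.29). The 3 genes just outside were NCU01989 (0.68 and 0.75), NCU01060 (0.87 and 0.66) and *hcp-1* (NCU07221, 0.66 and 1.20). The edge thus parts genes of nearly equal differences, and in NCU01735 and *hcp-1* ΔMSN1 alone decided the side.

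The study asked what the loss of MSN1 does to rhythmic genes, and a part of that is the level of the morning-high genes. The rule did not compare this level between strains, but 12 of the 24 libraries tested gave the differences that chose the genes. In the other 12 libraries alone, the test that follows called 15 members lower in ΔMSN1. The level over the 24 libraries was lower in ΔMSN1 for 19 of the 32 genes and higher for none (edgeR's quasi-likelihood test with time as a factor, Benjamini-Hochberg adjusted p under 0.05). Over all 6334 genes 10.4% were called lower and 12.9% higher. The fitted difference was below 0 for 30 of the 32 members, against 47.4% of all genes, with a median of −0.55 on the log2 scale against 0.01. At an unadjusted p under 0.05, 1 member was higher (NCU00322), and in DESeq2 the counts were 21 lower and 0 higher. The shares of all genes in these settings are not given, so these counts are not read as a trait of the members. The early-night-high genes, chosen by the same rule turned round, had 4 lower and 18 higher of 49, with a median of 0.16. Of the 8 genes left out by the rule 4 were lower and 0 higher, with a median of −0.27.

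The lowest relative level was that of NCU02884. In ΔMSN1 its libraries ran from 2.80 CPM through a median of 16.5 CPM to 95.4 CPM, and in WT from 6.51 CPM through 56.4 CPM to 307 CPM. The ranges overlapped, since both cover the whole day, but ΔMSN1 was lower at each of the 12 times, and the log2 difference was −1.82 ± 0.24 (SE, adjusted p = 6.39e-05). *tcu-1* and NCU00829 came next. *tcu-1* had a median of 23.5 CPM in ΔMSN1 (11.6 to 102 CPM) and 72.0 CPM in WT (11.8 to 228 CPM), with a log2 difference of −1.16 ± 0.23 (adjusted p = 0.00271). Its neighbour NCU00829 had a median of 17.7 CPM in ΔMSN1 (10.1 to 94.5 CPM) and 58.0 CPM in WT (7.95 to 261 CPM), with −1.13 ± 0.22 (adjusted p = 0.00226). Both were lower in ΔMSN1 at 10 of 12 times. The other copper transporter gene, *tcu-3*, was lower at all 12 times, with −0.78 ± 0.14 (adjusted p = 0.00117).

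NCU01735 had a median of 74.4 CPM in ΔMSN1 (33.6 to 188 CPM) and 162 CPM in WT (56.2 to 473 CPM), and a log2 difference of −1.12 ± 0.33 (adjusted p = 0.0239). NCU01064 had 5.02 CPM in ΔMSN1 (1.50 to 17.9 CPM) and 9.54 CPM in WT (3.94 to 33.4 CPM), with −1.01 ± 0.18 (adjusted p = 0.00117). Each was lower in ΔMSN1 at 10 of 12 times. The call for NCU01735 was lost when any 1 of the times 6, 12, 14, 18 or 22 h was left out (adjusted p = 0.0522 to 0.0540), and that for NCU08193 (−0.53 ± 0.18, adjusted p = 0.0386) without any 1 of 6, 8, 12, 14, 18, 20 or 22 h (adjusted p = 0.0584 to 0.0763). The other 17 calls held when each time was left out in turn.

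The oxidoreductase NCU09533 was at a median of 65.3 CPM in ΔMSN1 (44.4 to 152 CPM) and 123 CPM in WT (101 to 241 CPM), lower in ΔMSN1 at 11 times, with a log2 difference of −0.97 ± 0.13 (adjusted p = 7.09e-05). NCU09821, *gcy-2*, NCU01870 and NCU01112 were also lower, by −0.39, −0.51, −0.89 and −0.57. Of the plant-wall enzymes *gh28-2* was lower (−0.64 ± 0.18, adjusted p = 0.0202), while *ce12-1* (−0.39, adjusted p = 0.0642) and NCU08412 (−0.21, adjusted p = 0.0726) did not pass over all 24 libraries. The heat shock protein NCU07232 had a median of 1726 CPM in ΔMSN1 and 2427 CPM in WT and a log2 difference of −0.66 ± 0.19 (adjusted p = 0.0186).

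Among the hypothetical proteins NCU04675 and NCU07345 were lower at all 12 times, with log2 differences of −0.75 ± 0.10 (adjusted p = 0.000119) and −0.75 ± 0.12 (adjusted p = 0.000341). NCU00175 was too, with −0.61 ± 0.13 (adjusted p = 0.00335). Together with NCU02884 and *tcu-3* these were the 5 members lower in ΔMSN1 at every time, against 0.742% of all genes, and 15 members were lower at 10 or more times, against 4.04%. NCU01430 (−0.87) and NCU08194 (−0.61) passed the test as well.

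The 13 members that did not pass had log2 differences from −0.48 (NCU09395, adjusted p = 0.0683) to 0.26 (NCU00322, adjusted p = 0.0616). *frq* was among them, with a mean of 9.61 ± 5.58 CPM in ΔMSN1 and 10.2 ± 5.80 CPM in WT (SD over 12 times) and a log2 difference of −0.19 ± 0.11 (adjusted p = 0.229). So were the 2 genes highest at 0 h, *mig-3* (−0.19, adjusted p = 0.0812) and NCU08291 (0.05, adjusted p = 0.841), and *tca-17* (−0.26, adjusted p = 0.124). NCU00322 was higher in ΔMSN1 at 10 of 12 times. It passed as higher only when 0 h (0.30, adjusted p = 0.0374) or 20 h (0.29, adjusted p = 0.0477) was left out. With 1 time left out, calls as lower were gained by *mig-3* (without 16 h, adjusted p = 0.0172), *tca-17* (12 h, 0.0252), NCU02596 (22 h, 0.0342), NCU09395 (4 or 10 h, 0.0491 and 0.0340), NCU07049 (2 or 10 h, 0.0382 and 0.0479), *ce12-1* (2 or 6 h, 0.0489 and 0.0386) and NCU08412 (2 or 12 h, 0.0401 and 0.0446).

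**Figure D4:**
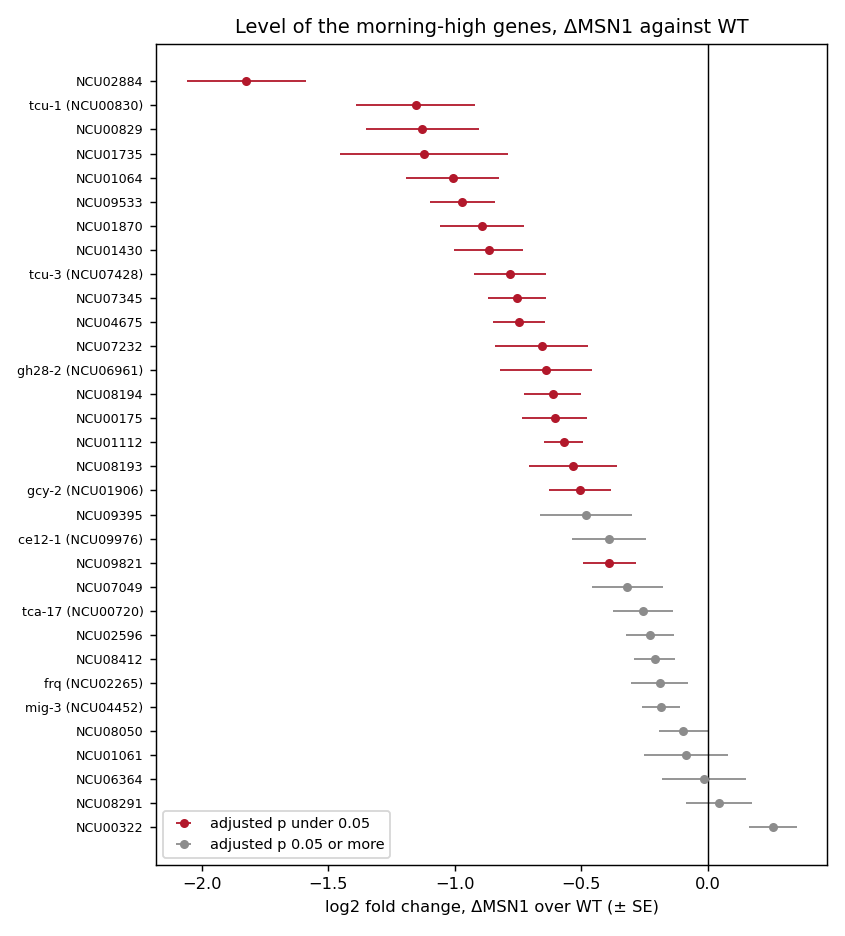
Fitted log2 fold change of each of the 32 genes, ΔMSN1 over WT, over 24 libraries (x axis, points with bars of 1 standard error), with genes down the y axis and red for adjusted p under 0.05 in edgeR. The 19 red genes all lie left of 0, from −1.82 (NCU02884) to −0.39 (NCU09821), and the 2 genes to the right of 0 are grey.

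The same test was run in parts of the course. In the 12 libraries at 0, 8, 10, 18, 20 and 22 h alone, 15 members were called lower, against 4.15% of all genes, with a median of −0.65. These libraries entered the rule only through the minimum mean, while those of the next counts gave the differences that chose the genes. In the 6 morning libraries alone 7 were called lower (3.44% of all genes), with 27 below 0 and a median of −0.43. In the 6 early-night libraries alone 2 were called lower (0.395% of all genes), again with 27 below 0 and a median of −0.33. Whether the strain difference itself changes with time of day was not tested over these sets. Lane and culture set cannot be told apart from strain in any of them.

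A second test asked whether the members were also higher near the morning than far from it in libraries that the rule did not use. The mean of 10 and 18 h, the times on either side of the morning window, was set against that of 0 and 22 h in both strains, in an edgeR fit of the 12 libraries at 0, 8, 10, 18, 20 and 22 h. The cultures of 0 h came from the end of a light phase. No member passed, with the smallest adjusted p at 0.482, and none of the 6334 genes did (0% called). By DESeq2 8 of all genes and 0 members passed. At an unadjusted p under 0.05, 3 members were higher at 10 and 18 h and 2 were lower, against 4.64% and 4.91% of all genes. The fitted difference was above 0 in 21 of 32 members, against 46.6% of all genes, with a median of 0.24 against −0.02. The early-night-high genes were above 0 in 11 of 49. The 8 genes that the rule left out were above 0 in 8 of 8, with a median of 0.63. Depth moved with this contrast too, by strain. Libraries of 10 and 18 h averaged 7240076 against 2954382 for 0 and 22 h in ΔMSN1 and 5413298 against 6266492 in WT. In ΔMSN1 the deeper libraries were here those nearer the morning, the reverse of the windows of the rule. The part of depth in this contrast was not tested.

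The 3 higher genes were *tca-17*, NCU01430 and NCU01061. *tca-17* was at 126 and 144 CPM at 10 and 18 h in ΔMSN1, against 107 and 124 CPM at 0 and 22 h, and at 227 and 156 CPM in WT, against 105 and 128 CPM. Its groups did not overlap in either strain and its log2 difference was 0.49 ± 0.13 (edgeR, unadjusted p = 0.00443, adjusted p = 0.482). NCU08050 also had no overlap in either strain, with 8.09 and 7.82 CPM against 7.50 and 4.92 CPM in ΔMSN1 and 7.68 and 6.18 CPM against 5.60 and 5.02 CPM in WT. These 2 were the members without overlap in both strains, against 2.81% of all genes. By strain there were 4 in ΔMSN1 (15.6% of all genes) and 8 in WT (10.2%). In the other direction, with 10 and 18 h below 0 and 22 h, there were 3 in ΔMSN1 (11.5% of all genes) and 3 in WT (21.4%).

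The 2 lower genes were those highest at 0 h, NCU08291 (−1.44 ± 0.48, unadjusted p = 0.0138 in edgeR, adjusted p = 0.482) and *mig-3* (−1.41 ± 0.55, unadjusted p = 0.0288 in edgeR, adjusted p = 0.4998). Against 22 h only, without the libraries of 0 h, *mig-3* came to 0.28 and NCU08291 to −0.12. 9 further members lay below 0 without passing, namely NCU01064 (−1.21), *frq* (−0.50), NCU09395 (−0.35), NCU08412 (−0.21), NCU01735 (−0.20), *gcy-2* (−0.18), NCU09533 (−0.14), *gh28-2* (−0.14) and NCU04675 (−0.12). With 22 h alone as the far time 22 members were above 0, with 0 and 8 h 23, and with 8, 10 and 18 h set against 0, 20 and 22 h 20.

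**Figure D5:**
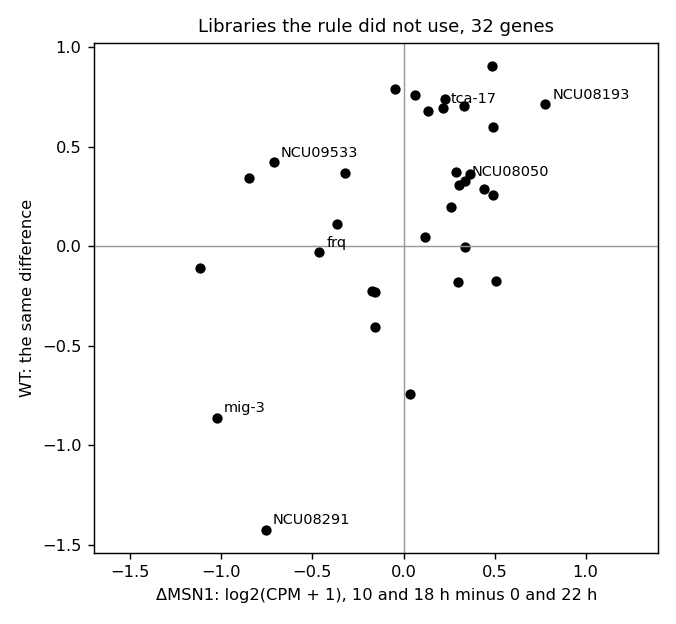
Mean log2(CPM + 1) at 10 and 18 h minus that at 0 and 22 h in ΔMSN1 (x axis) and in WT (y axis), with 1 point per gene and 32 genes. Of the members 20 are right of 0 in ΔMSN1 and 21 above 0 in WT, and *mig-3* and NCU08291 lie below 0 in both strains.

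This difference was also compared between the strains. No member passed, nor did any of the 6334 genes (edgeR, smallest adjusted p = 0.9998, and DESeq2 also called 0), and 3 members had an unadjusted p under 0.05, against 3.39% of all genes. They were NCU01430, NCU09533 and *tca-17*, each with a smaller difference in ΔMSN1. In NCU09533 the values at 10 and 18 h were 44.4 and 60.0 CPM in ΔMSN1, against 69.7 and 104 CPM at 0 and 22 h, while in WT they were 128 and 146 CPM against 103 and 101 CPM. Each of these means holds 2 libraries.

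By the list of circadian genes that the study drew from an earlier WT series, not analysed here, 21 of the 32 members (65.6%) were circadian, against 1047 of the 6334 kept genes (16.5%), and the 21 made up 2.01% of those 1047. Of the early-night-high genes 25 of 49 were. None of the members was on the list of third-harmonic genes and 1, NCU08194, was on that of second-harmonic genes. The 11 members not on the circadian list included the 5 genes above their 8 and 10 h values at 18 to 22 h in both strains (NCU00829, *tcu-1*, *tcu-3*, NCU02884 and NCU08193), NCU08194 and both genes highest at 0 h, together with NCU08050, NCU09395 and NCU06364. *frq* and the 3 plant-wall enzymes were on it. The study also listed genes found rhythmic in a verification series, and membership of those lists was not looked up here. Members off the circadian list may thus be on those.

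By position, 12 of the members lay on chromosome I, with 7 on V, 4 each on III and IV, 2 each on II and VII and 1 on VI. Chromosome I also held 1638 of the kept genes, the most of any chromosome. *tcu-1* and NCU00829, and NCU08193 and NCU08194, were direct neighbours. NCU01061 and NCU01064 had 3 genes between them, of which NCU01063 (looked up after its neighbours were seen) had a difference of 0.85 in ΔMSN1 and −0.17 in WT.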

How the data were processed

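The 24 libraries were poly(A) RNA-seq libraries, 12 of ΔMSN1 and 12 of WT, grouped by strain and time from the labels, with 0 columns unmapped. The authors deposited estimated counts per gene, made with kallisto 0.43.1 by the submitters' processing notes. The build of the genome was not given in the sources used here. Column totals are whole numbers, yet only 11.5 to 15.4% of values are, all of them zeros. Among 1232 genes at 0 in 3 or more libraries, the smallest value above 0 fell with gene length (Pearson r = −0.771 of natural logs). The values were therefore rescaled in a way that is not stated, and CPM may not stand for reads. For the tests they were rounded to the nearest whole number.

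CPM was taken per column with no other scaling for the descriptions. edgeR 4.0.16 (TMM, quasi-likelihood, R 4.3.3) tested all 6334 genes that averaged 5 CPM or more, adjusted over all of them at 0.05, with time as a factor for strain and with phase and strain for the 12 libraries at 0, 8, 10, 18, 20 and 22 h. DESeq2 1.42.0, limma 3.58.1 (voom), other scalings, filters and pseudocounts, and leaving out each time were the alternatives. With 1 culture per strain and time, the cultures stand in for replicates and p-values measure their spread around the fit. Python 3.11.15, numpy 2.4.6, pandas 2.3.3 and matplotlib 3.10.9 were used.

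The members and gene lists were chosen with earlier results of these data known. Named genes were members with a symbol, the 8 of highest CPM, the 8 of largest difference in the weaker strain, the 5 largest called falls in ΔMSN1, the 5 of smallest p and any below 0 in the comparison of 10 and 18 h with 0 and 22 h, the 3 genes on either side of the minimum, and chromosomal neighbours. Other members were named to fill the groups, after their values were seen. Symbols and neighbours come from the NC12 reference table (9729 of 9730 genes matched), and product names and rhythm lists from the tables of the study, whose fold and phase columns were not used.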

Additional observations from a re-analysis of the deposited data

Results flagged for a closer look

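NCU09533, the oxidoreductase with an NAD-binding fold, stood out because its difference between 10 and 18 h and 0 and 22 h went opposite ways in the strains, at −0.71 on the log2(CPM + 1) scale in ΔMSN1 and 0.42 in WT. ΔMSN1 minus WT came to −1.133. Each mean in it holds 2 libraries, and on this scale the difference was not itself tested. In the fit across all genes the strain difference of the contrast had an unadjusted p of 0.0347 and an adjusted p of 0.9998 in edgeR.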

How the results depend on the processing

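The number of members followed the rule's settings. It was 11 at a minimum difference of 1.0, 67 at 0.5 and 54 when CPM used TMM library sizes (all 32 were among these 54), and 26 to 35 when 1 of the 6 times of the windows was left out. The count of members lower in ΔMSN1 was 19 as reported and 10 with no time factor (9.25% of all genes). It was 7 in the morning libraries alone and 2 in the early-night libraries alone. The smaller sets have 6 libraries each. The count of members higher in ΔMSN1 ranged from 0 to 1, and the lower count from 17 to 22, when each time was left out. With DESeq2, limma-voom, DESeq2 size factors, another filter, values times gene length or the 12 libraries outside the windows, the lower count was 15 to 21 and the higher count 0. Among the strain values of the 19 called genes, 362 kept direction and side of the threshold, 55 kept direction only and 1 turned, NCU08193 in the early-night libraries alone (0.094). Of the 13 genes not called, 8 gained a call when 1 time was left out. In the comparison of 10 and 18 h with 0 and 22 h, for the 5 genes with an unadjusted p under 0.05, 93 kept theirs and 2 turned, *mig-3* against 22 h only (0.28) and NCU01430 in ΔMSN1 alone (−0.05); the cause was not tested. The labels give no replicate numbers, and the reported strain test pairs the strains by time through its time factor.

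A single cycle was sampled, morning libraries were on average shallower than early-night ones, and the unstated rescaling of the values limits what CPM stands for. Members at about 10 CPM, *frq* included, rest on few estimated counts per library (the lowest is 6.18).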
